A study of Mus musculus with 18 samples.

Results

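Ribosome biogenesis factors are the proteins that transcribe, fold, modify, cut and package ribosomal RNA before a ribosomal subunit can work. The 37 genes described here were taken by name, as a list of such factors, and each was read from the probe set with the highest mean over all 18 arrays. All 37 were on the array, all 37 passed the filter on low values, and they stand among 13728 genes tested of 18194 genes on the array. They were 3 RNA polymerase I subunits, 7 proteins of small nucleolar ribonucleoproteins (snoRNPs), 11 factors of the small subunit pathway, 10 factors of the large subunit pathway and 6 other nucleolar proteins.

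Ribosome production starts in the nucleolus, where RNA polymerase I makes 1 long precursor RNA. Box C/D snoRNPs methylate that RNA and box H/ACA snoRNPs convert uridines to pseudouridines, after which separate sets of assembly factors cut and fold the parts that enter the small and the large subunit. Making ribosomes takes a large share of a growing cell's amino acids and energy, and it is known to be turned down when amino acids run short. ATF4 is a transcription factor whose translation rises on amino acid shortage and which activates genes of amino acid synthesis and uptake, and C/EBPgamma, the product of Cebpg, is a partner with which it forms dimers.

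The cells were mouse embryonic fibroblasts (MEFs), primary cells isolated at E13.5 and passaged 2 to 3 times, from WT, Atf4-/- and Cebpg-/- embryos. Each culture was plated for 24 h and then given normal medium or medium without amino acids (AAD) for 3 h, the latter made from Krebs-Ringer buffer and supplements. The 6 groups were therefore WT, Atf4-/- and Cebpg-/- cells in normal medium and the same genotypes in AAD medium, with 3 arrays each. Strain, the alleles' construction and the number of embryos behind each genotype are not given in the sources used here, and nothing says that the arrays of a group stand for different embryos. The p-values therefore reflect the spread among these arrays, which may be technical. Each genotype may therefore rest on few isolates, and differences between isolates and between genotypes cannot be told apart.

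Values are log2 probe set values, ranging from 2.15 to 14.56 over the arrays, and array medians lay between 5.21 and 5.27. Errors of levels are standard deviations over 3 arrays, and those of log2 differences are limma's standard errors, with 3 arrays in each group. A gene was called at a limma adjusted p under 0.05, adjusted over all 13728 genes. Atf4 stood at 12.10 ± 0.07 in WT and 6.50 ± 0.16 in Atf4-/- cells in normal medium, while the Cebpg probe set read 9.27 ± 0.09 in WT against 9.31 ± 0.06 in Cebpg-/- cells. In AAD medium, under which Cebpg rose by 1.06 in WT cells, it was lower in Cebpg-/- than in WT cells (-0.74, limma adjusted p = 0.000133). The probe set, not called as different in normal medium, gave no clear check of that deletion. Cebpg was also lower in Atf4-/- than in WT cells, with differences of -1.36 in normal and -2.42 in AAD medium. The 10 fibroblast markers were all above the filter, and their summed level (log2 of the summed linear values) was 15.91 to 16.02 on the WT arrays and 15.45 to 15.69 on those of both knockouts, without overlap. The 10 macrophage markers were also all above the filter: their summed level was 12.26 to 12.32 in WT, 12.99 to 13.37 in Atf4-/- and 13.39 to 13.81 in Cebpg-/- cells in normal medium, and 11.51 to 11.63, 12.29 to 12.81 and 12.49 to 12.94 in AAD medium. These markers thus moved with both medium and genotype, and their part in the results below was not tested. Of 6 endothelial markers 1 passed the filter, and with RNA from whole cultures fewer cells of a type and less RNA per cell cannot be told apart.

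The Atf4-/- arrays numbered 3 stood apart for the ribosome biogenesis genes. That array was the lowest of its group for 36 of 37 members in normal medium and for 36 of 37 in AAD medium, against 40.2% and 37.4% of all genes tested. Its members lay a median of -0.13 and -0.12 log2 units from their group means, where the medians over all genes were -0.01 and 0.00. Arrays of 1 genotype and number deviated alike from their group means across media (correlations of 0.30 to 0.69), though the labels do not say what the numbers stand for. Both arrays of that number are therefore left out together where results on Atf4-/- cells are given a second time. Arrays numbered 3 were also low for the members in the other genotypes: in WT they were the lowest for 23 and 26 members (median -0.05 in both media), and in Cebpg-/- cells for 30 in normal medium (81.1%, against 34.4% of all genes, median -0.06) and 17 in AAD medium.

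Promoter sequence was given for 32 of the 37 genes (RefSeq, GRCm38.p6), as windows of 300 bases with 250 before and 50 after a transcription start. The motif CACGTG, the E-box bound by MYC and MAX, was searched on both strands, as were CANNTG, the general E-box that contains it, TGACGTCA, the cAMP response element, and TGATGNAA, a composite site for a C/EBP protein with ATF4. CACGTG was present in 8 of the 32 genes (25.0%), namely Ltv1, Mybbp1a, Nop2, Pes1, Tsr1, Utp18, Utp20 and Wdr43, beside 15.8% of 101 other ribosome biogenesis genes and 8.09% of all 27025 genes in the table. CANNTG was in 71.9% of members and 75.0% of all genes. TGACGTCA was in 1 member, Noc4l (3.12%, against 2.03% of all genes), and TGATGNAA in 1, Nop14 (3.12%, against 4.51%). The 5 stretches below are shown because Tsr1, Utp18 and Nop14 are among the genes whose AAD response differed between Atf4-/- and WT cells, Wdr43 joined them in the paired fit, and Nop2 fell in Atf4-/- cells. Each is written 5′ to 3′ on the gene's strand, and capitals mark the match, which lay before the annotated start in Utp18 and Nop2 and just after it in the others.
Tsr1, chr11:74898059-74898109, plus strand: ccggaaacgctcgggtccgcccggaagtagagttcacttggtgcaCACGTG
Utp18, chr11:93885767-93885831, minus strand: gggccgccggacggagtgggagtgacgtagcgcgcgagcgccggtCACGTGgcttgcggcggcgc
Wdr43, chr17:71616187-71616237, plus strand: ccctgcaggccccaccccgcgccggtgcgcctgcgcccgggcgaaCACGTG
Nop2, chr6:125131778-125131873, plus strand: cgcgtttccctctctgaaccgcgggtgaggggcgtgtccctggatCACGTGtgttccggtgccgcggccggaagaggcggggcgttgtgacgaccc
Nop14, chr5:34660120-34660172, minus strand: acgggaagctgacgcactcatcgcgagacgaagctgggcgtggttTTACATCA
In Nop14 the capitals are TGATGNAA read on the other strand. A match describes the letters in the window and says nothing of binding.

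Amino acid deprivation moved the list in both directions in WT cells. Of the 37 genes 4 rose and 8 fell, which is 32.4% called against 28.2% of all genes tested (14.3% rose and 13.9% fell). Their median log2 change was -0.09, against -0.01 for all genes, and 12 estimates lay above 0 and 25 below. The share called was thus close to the background, with 2 members falling for each that rose, while all genes were nearly even. Of the 8 that fell, 5 were large subunit factors, 2 snoRNP proteins and 1 a polymerase I subunit, and of the 4 that rose 3 were small subunit factors and 1, Gnl3, another nucleolar protein. The median over the 10 large subunit factors was -0.25 and over the 11 small subunit factors 0.00. No test compared these roles with each other. With the replicate block, that is with the arrays of 1 number paired across media, 19 members were called in place of 12, 7 rising and 12 falling, against 39.2% of all genes. Small subunit factors were then called in both directions, 5 rising and 2 falling, the latter Heatr1 (-0.18, limma adjusted p = 0.0238) and Noc4l (-0.23, limma adjusted p = 0.0047). Of 42 further small subunit genes, from the wider pathway list described below, 5 rose and 9 fell without the block (median -0.05). Of 47 further large subunit genes from that list 6 rose and 11 fell (median -0.06). The difference between the 2 roles among the members was thus not seen in the wider list.

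Nop16, a nucleolar protein of early large subunit particles, fell most. It read 9.82, 9.85 and 9.85 in normal medium and 9.34, 9.39 and 9.09 in AAD medium. The groups did not overlap, and the change was -0.57 ± 0.08 (limma adjusted p = 8.19e-05), a 1.48-fold fall. Most genes with printed arrays, here and below, were picked for large called differences in these same arrays. A lack of overlap therefore adds no separate support, and the share of all genes without overlap was not counted. Rrp1b, a nucleolar protein that associates with large subunit precursors, read 9.24, 9.23 and 9.09 and then 8.89, 8.94 and 8.67. Every AAD array was below every normal one, with a change of -0.35 ± 0.10 (limma adjusted p = 0.0194). The other large subunit factors that fell were Nip7, needed for maturation of the large subunit's RNA (-0.35 ± 0.08), Noc2l, one of the NOC proteins of pre-60S export (-0.30 ± 0.08), and Rrs1, which brings the 5S ribonucleoprotein into the particle (-0.29 ± 0.08). The remaining 5 were not called and lay between -0.22 for Wdr12 and 0.07 for Pes1, both parts of the PeBoW complex with Bop1 (-0.07 ± 0.07). For Nip7 a second, dimmer probe set showed a change of 0.00, and for Noc2l the second probe set showed -0.75 ± 0.07.

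Of the snoRNP proteins, the 2 that fell both belong to the H/ACA particle. Nhp2, a core protein of that particle, read 11.95, 12.16 and 11.96 in normal medium and 11.59, 11.68 and 11.49 in AAD medium, so that the groups did not overlap. Its change was -0.44 ± 0.09 (limma adjusted p = 0.00155). Dkc1, the pseudouridine synthase of the particle, changed by -0.30 ± 0.10 (limma adjusted p = 0.0376), a call that was kept in 1 of 6 fits leaving out 1 array. Gar1, another H/ACA protein, was not called (-0.10 ± 0.08). Nor were the box C/D proteins Fbl, the methyltransferase (-0.12 ± 0.06), Nop56 (0.03 ± 0.13), Nop58 (0.21 ± 0.11) and Rrp9, which binds U3 (-0.09 ± 0.11). Of the polymerase I subunits, Polr1b, the second largest, fell (-0.31 ± 0.09, limma adjusted p = 0.0149), while Polr1c, shared with RNA polymerase III, changed by -0.13 ± 0.07 and Polr1a, the largest, by 0.06 ± 0.09.

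Gnl3, the nucleolar GTPase also called nucleostemin, rose most. It read 10.89, 10.95 and 10.83 in normal medium and 11.30, 11.37 and 11.30 in AAD medium, a change of 0.43 ± 0.08 (limma adjusted p = 0.000407). Nop14, a part of the small subunit processome, read 9.05, 9.22 and 8.99 and then 9.36, 9.43 and 9.45. In both genes every AAD array was above every normal one, and Nop14 rose by 0.33 ± 0.07 (limma adjusted p = 0.00167). Ltv1, an assembly factor that leaves the late small subunit precursor, read 9.89, 9.89 and 9.88 in normal medium and 10.12, 10.18 and 10.06 in AAD medium. Again the groups did not overlap, and the rise was 0.23 ± 0.07 (limma adjusted p = 0.0276). Utp18, a processome protein, rose by 0.18 ± 0.06 (limma adjusted p = 0.0235). When 1 array at a time was left out, Gnl3 and Nop14 stayed called in 6 of 6 fits, Utp18 in 3 and Ltv1 in 1. Leaving out the WT normal array numbered 1 brought the count of members called from 12 to 7.

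**Figure D1:**
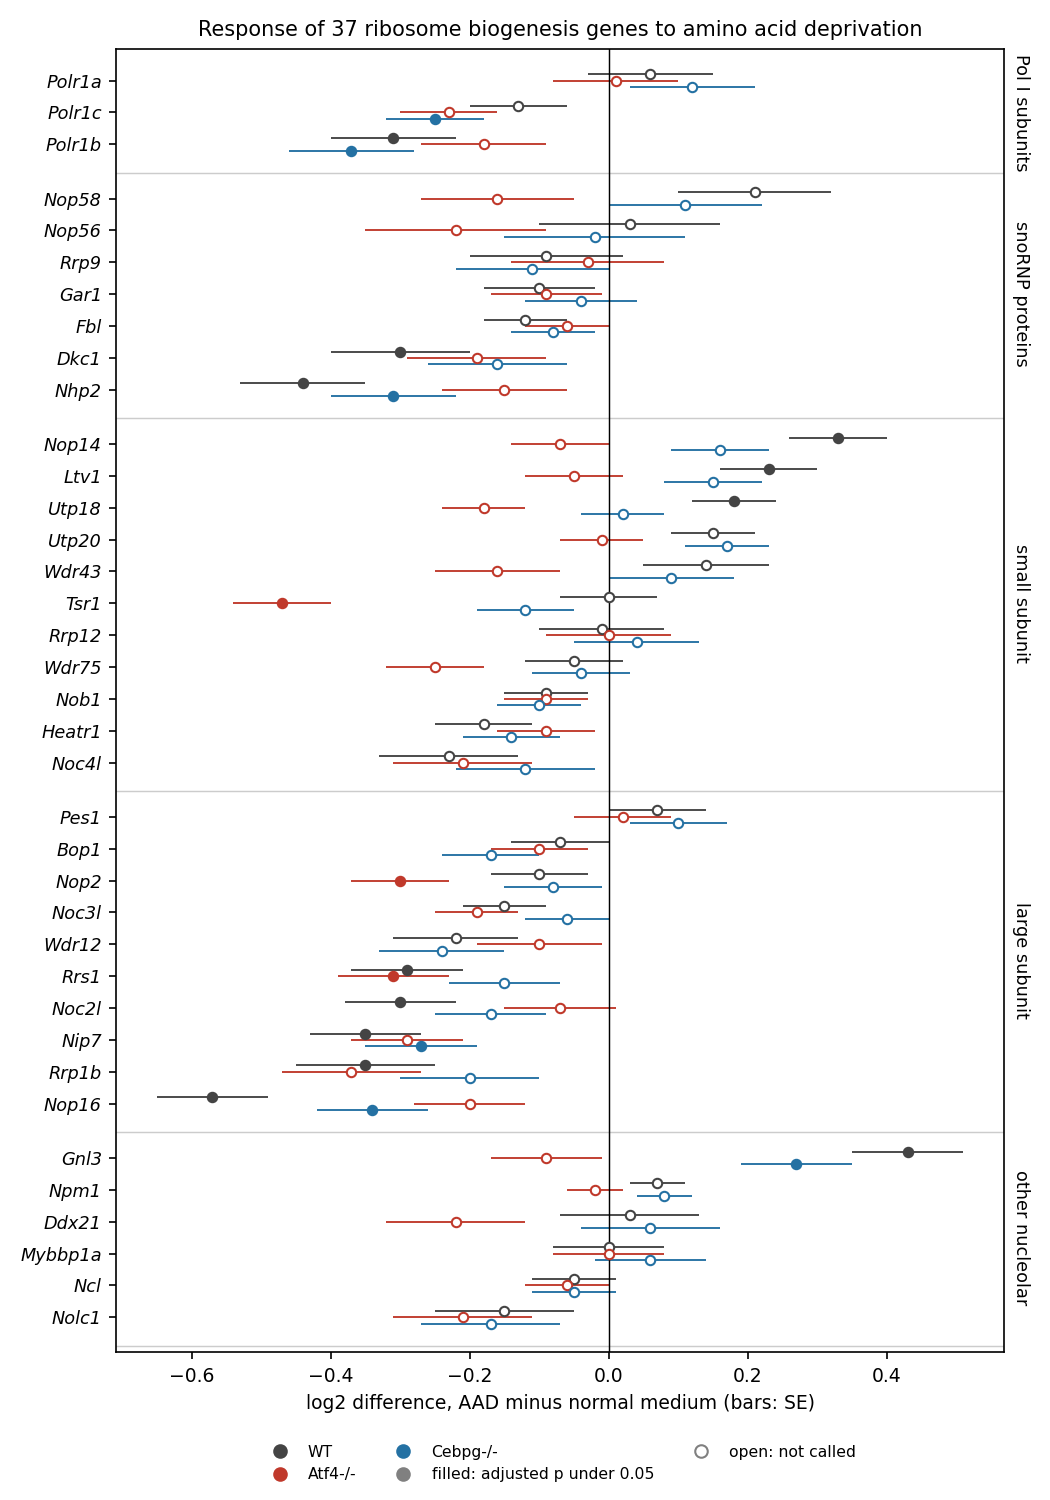
Log2 difference of each of the 37 genes between AAD and normal medium in WT, Atf4-/- and Cebpg-/- cells, grouped by role; points are estimates, bars are standard errors from limma (n = 3 arrays per group) and filled points have an adjusted p under 0.05. WT runs from -0.57 for Nop16 to 0.43 for Gnl3, the Atf4-/- points lie between -0.47 and 0.02, and the Cebpg-/- points between -0.37 and 0.27.

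In Atf4-/- cells no member rose under AAD medium and 3 fell, which is 8.11% called against 4.7% of all genes tested (2.67% rose and 2.03% fell). The median change was -0.15, against 0.01 for all genes, and 34 of 37 estimates were below 0. At an unadjusted p under 0.05, 11 members were lower and 0 higher, with no share of all genes at that threshold to set beside them. Tsr1, a GTPase-like factor of late small subunit maturation, read 10.95, 10.87 and 10.71 in normal medium and 10.48, 10.41 and 10.24 in AAD medium. The groups were well apart, and Tsr1 fell by 0.47 on the log2 scale, with a standard error of 0.07 (limma adjusted p = 0.00105). Nop2, an RNA methyltransferase of the large subunit pathway, read 8.75, 8.61 and 8.49 and then 8.33, 8.33 and 8.29, a change of -0.30 ± 0.07 (limma adjusted p = 0.016). Rrs1 read 11.38, 11.44 and 11.29 and then 11.18, 11.12 and 10.86, and changed by -0.31 ± 0.08 (limma adjusted p = 0.0416). In all 3 genes, picked because they were called in these arrays, the groups did not overlap.

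The count in Atf4-/- cells depended on the arrays and on pairing. It was 8 without the normal array numbered 3, 5 without the AAD array numbered 1, and 1 without the normal arrays numbered 1 or 2 or the AAD array numbered 3. Without both arrays numbered 3 it was again 3 members, all lower, but with Rrp1b (-0.39 ± 0.10) in place of Rrs1 (-0.26 ± 0.08, limma adjusted p = 0.141). With the replicate block 11 members were lower and 0 higher, against 11.1% of all genes called. Tsr1 was called in each of these fits.

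In Cebpg-/- cells 1 member rose and 5 fell under AAD medium, 16.2% called against 21.9% of all genes tested (11.7% rose and 10.3% fell). The median change was -0.08, against -0.02 for all genes. Gnl3 was the gene that rose, from 10.90, 10.89 and 10.86 to 11.12, 11.06 and 11.27 (0.27 ± 0.08, limma adjusted p = 0.019). Polr1b read 7.97, 7.99 and 8.14 in normal medium and 7.55, 7.75 and 7.69 in AAD medium, and fell by 0.37 on the log2 scale (standard error 0.09, limma adjusted p = 0.0071). Nop16 went from 10.01, 9.99 and 9.89 to 9.64, 9.68 and 9.56 (-0.34 ± 0.08, limma adjusted p = 0.00848). In these 3 genes no array of one medium overlapped those of the other.

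Nhp2 in Cebpg-/- cells read 12.20, 12.21 and 12.10 and then 11.96, 11.88 and 11.74, again without overlap (-0.31 ± 0.09, limma adjusted p = 0.021). Nip7 (-0.27 ± 0.08) and Polr1c (-0.25 ± 0.07) completed the genes that fell. The 11 small subunit factors ran from -0.14 for Heatr1 to 0.17 for Utp20, and 0 were called by limma (2 higher and 0 lower at an unadjusted p under 0.05). Of these, 3 were called as rising with the replicate block, Utp20 (limma adjusted p = 0.013), Ltv1 (0.15, limma adjusted p = 0.0175) and Nop14 (0.16, limma adjusted p = 0.0483). In all 15 members were then called, 4 rising and 11 falling, against 34.0% of all genes, and with the mean of all probe sets of a gene 11 were called.

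The genes moving in WT and Cebpg-/- cells overlapped. Of the 8 that fell in WT and the 5 that fell in Cebpg-/- cells, 4 were the same (Nhp2, Nip7, Nop16 and Polr1b), and Gnl3 was the 1 gene called as rising in Cebpg-/- cells and 1 of the 4 in WT. The fits of these responses share no arrays. The 37 genes are not independent replicates. Across them the responses of WT and Cebpg-/- cells had a Pearson correlation of 0.91, against 0.87 over all genes tested. Of the 37, 34 shared their sign, beside 10867 of all 13728 genes. WT and Atf4-/- responses had a correlation of 0.36 over the 37 genes and 0.46 over all genes. Here 26 of the 37 had the same sign, beside 8198 of all 13728 genes. Rrs1 was the 1 gene called as falling in both WT (1 of 8) and Atf4-/- cells (1 of 3) when the pairing of arrays was ignored. Under the replicate block 5 genes fell in both (Nip7, Noc4l, Nolc1, Rrp1b and Rrs1), 5 of 12 in WT and 5 of 11 in Atf4-/- cells. The block also widened the overlap of WT and Cebpg-/- cells, to 9 genes that fell in both (of 12 and 11) and 4 that rose in both (of 7 and 4), Gnl3, Ltv1, Nop14 and Utp20.

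The difference between a knockout's response and that of WT was tested as an interaction, in which a negative value means a smaller rise or a deeper fall than in WT. For Atf4-/- cells 4 members were lower and 0 higher (10.8% called, against 12.8% of all genes tested, 7.04% lower and 5.73% higher), and the median over the 37 was -0.03, against 0.01. At an unadjusted p under 0.05, 7 were lower and 2 higher, again with no share of all genes at that threshold. The 4 genes were Gnl3, Tsr1, Nop14 and Utp18, 3 of them in the small subunit pathway. Gnl3, which had risen in WT, read 10.93, 10.86 and 10.74 in normal and 10.83, 10.85 and 10.58 in AAD medium in Atf4-/- cells, with overlapping groups. The difference of the responses was -0.52 ± 0.11 (limma adjusted p = 0.00387). Nop14 read 9.40, 9.28 and 9.17 and then 9.24, 9.26 and 9.13 in Atf4-/- cells, where the groups also overlapped, and its responses differed by -0.40 ± 0.10 (limma adjusted p = 0.0112).

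Tsr1 differed in another way. It was 11.11, 11.06 and 10.97 in WT in normal medium and 11.07, 11.07 and 11.00 in AAD medium, with a mean of 11.05 in both, and it fell in Atf4-/- cells as given above. The difference was -0.47 ± 0.10 (limma adjusted p = 0.0055), and its second probe set gave -0.37 (limma adjusted p = 0.00721). Utp18 rose in WT and read 10.27, 10.23 and 10.11 and then 10.02, 10.05 and 9.98 in Atf4-/- cells, all 3 AAD arrays below the normal ones (-0.18 ± 0.06, limma adjusted p = 0.0765, not called). Its responses differed by -0.37 ± 0.08 (limma adjusted p = 0.00573), but its second probe set gave 0.14 (limma adjusted p = 0.861). All 4 differences stayed called in each of 12 fits leaving out 1 array. They also stayed called without both Atf4-/- arrays numbered 3, where Ltv1 joined them (-0.28 ± 0.08), and the count was 7 without the Atf4-/- normal array numbered 3. With the replicate block 10 members were called, 7 lower with Nop58, Wdr43 and Ltv1 added, and 3 higher, Nop16 (0.37), Nhp2 (0.29) and Noc2l (0.23), against 23.8% of all genes.

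**Figure D2:**
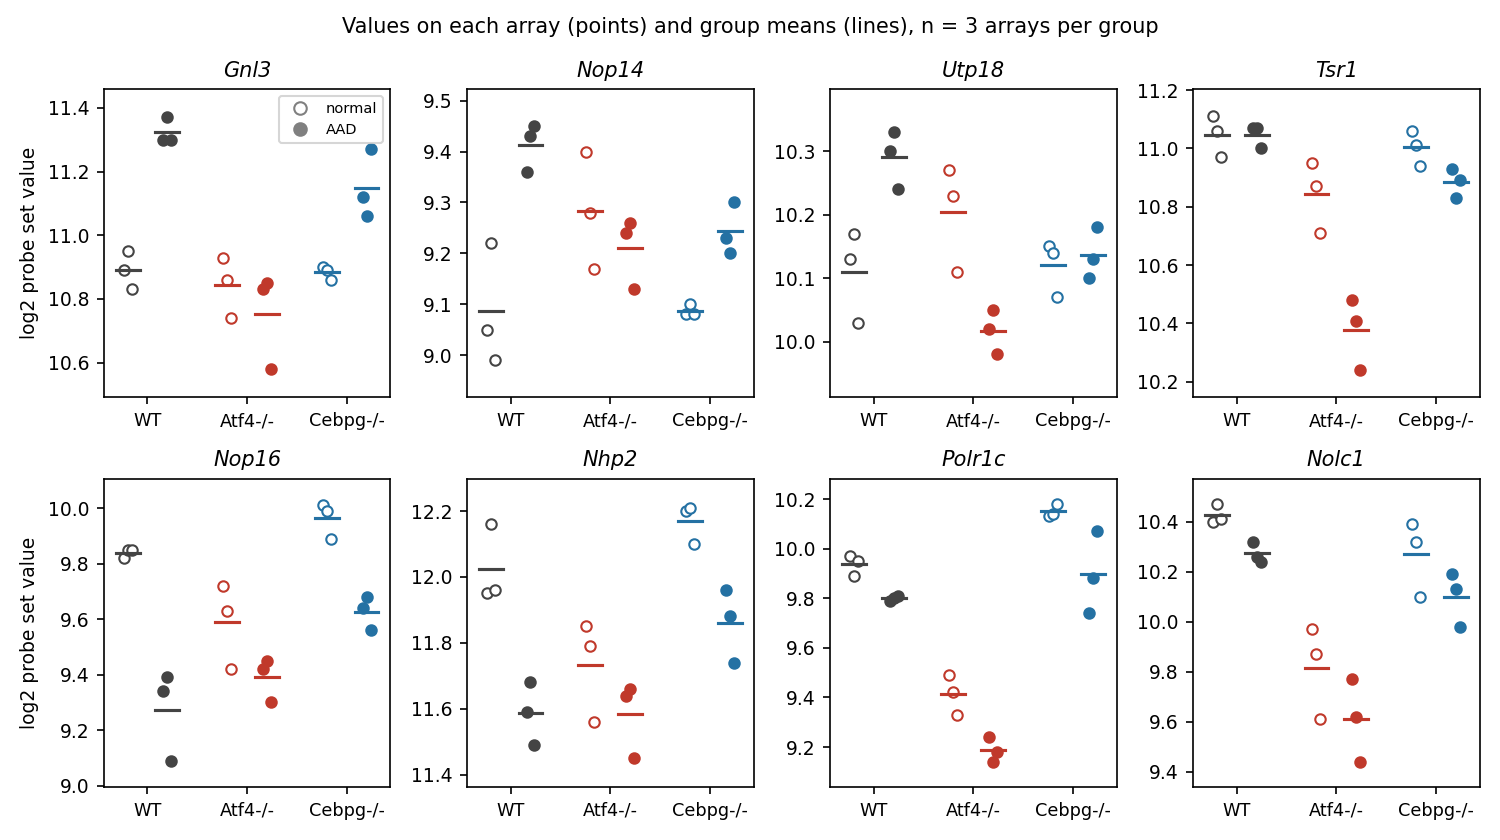
Log2 probe set values of 8 genes on each array, with open points for normal medium and filled points for AAD medium, left to right in the order of the array numbers, and lines at group means (n = 3). Gnl3, Nop14 and Utp18 are higher in AAD than in normal medium in WT and not in Atf4-/- cells, Tsr1 is lowest in Atf4-/- cells in AAD medium, and Polr1c and Nolc1 are lower in Atf4-/- cells than in WT in both media; each panel has its own axis, which does not start at 0.

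For Cebpg-/- cells 0 of 37 responses were called as different from WT by limma, and 0 had an unadjusted p under 0.05, where 0.226% of all genes were called (0.0801% higher and 0.146% lower). The estimates lay between -0.17 and 0.23. The farthest from 0 was Nop16, whose values are given above: it fell by 0.57 in WT and by 0.34 in Cebpg-/- cells on the log2 scale, a difference of 0.23 with a 95% interval of -0.02 to 0.48 (limma adjusted p = 0.756). For Gnl3 the difference was -0.17, with an interval of -0.39 to 0.06. These intervals include both no difference and differences as large as several of the WT responses. The replicate block also gave 0 calls among the members, against 1.38% of all genes. Both knockouts are compared here with the same WT arrays.

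Genes with and without CACGTG in the window can be set beside these responses. The 8 members with the motif had a median WT response of 0.11, with 2 called as rising and 0 as falling, and the 24 without it a median of -0.14, with 2 rising and 7 falling. For the difference of the Atf4-/- response from WT the members' medians were -0.24 and -0.01. They were -0.01 with and -0.02 without the motif among the other ribosome biogenesis genes, and 0.00 and 0.01 over all genes tested. Among the other ribosome biogenesis genes the WT medians were -0.05 with and -0.07 without the motif, and over all genes tested 0.02 and -0.01. Over all genes tested 20.4% of the 1239 with the motif rose in WT and 12.8% fell, against 13.8% and 14.5% of the 9799 without it. For the difference of the Atf4-/- response 129 of the 1239 were lower and 55 higher, beside 2 of the 8 members lower and 0 higher. Of the 9799 without the motif 652 were lower and 592 higher, beside 2 of the 24 members lower and 0 higher. The share of 2 in 8 members that rose was thus near that of all genes with the motif, and 5 of the 37 genes had no window.

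Knockout and WT cells were next compared within each medium. In normal medium 9 members were lower and 4 higher in Atf4-/- than in WT cells (35.1% called, against 51.5% of all genes tested, 21.4% lower and 30.2% higher), with a median of -0.02 against 0.02. The largest deficit was in Nolc1, also called Nopp140, a nucleolar chaperone of snoRNPs. It read 10.40, 10.47 and 10.41 in WT and 9.97, 9.87 and 9.61 in Atf4-/- cells, a difference of -0.61 ± 0.10 (limma adjusted p = 8.77e-05). Polr1c read 9.97, 9.89 and 9.95 in WT and 9.49, 9.42 and 9.33 in Atf4-/- cells (-0.52 ± 0.07, limma adjusted p = 9.47e-06). Rrp1b, whose WT values are given above, read 8.84, 8.70 and 8.43 in Atf4-/- cells (-0.53 ± 0.10, limma adjusted p = 0.000471). For each of these genes the WT arrays lay above all Atf4-/- arrays.

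The other genes lower in Atf4-/- cells in normal medium were the snoRNP proteins Dkc1 (-0.46 ± 0.10), Rrp9 (-0.30 ± 0.11) and Nhp2 (-0.29 ± 0.09), the large subunit factors Nip7 (-0.35 ± 0.08) and Nop16 (-0.25 ± 0.08, but 0.12 by its second probe set), and Tsr1 (-0.20 ± 0.07). Higher were Mybbp1a, Rrs1, Nop14 and Utp20. Mybbp1a, a nucleolar protein that binds MYB and acts in rRNA processing, read 11.35, 11.55 and 11.39 in WT and 11.87, 11.72 and 11.57 in Atf4-/- cells, without overlap (0.29 ± 0.08, limma adjusted p = 0.00533). Rrs1 was 11.23, 11.12 and 11.13 in WT, below all Atf4-/- arrays (0.21 ± 0.08, limma adjusted p = 0.0434). Nop14 overlapped between WT and Atf4-/- arrays in normal medium (0.20 ± 0.07, limma adjusted p = 0.0228), and Utp20, a large processome scaffold, was higher by 0.19 ± 0.06.

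The direction of this comparison rested in part on the arrays numbered 3. Without both Atf4-/- arrays of that number 14 members were called, 5 lower and 9 higher. The share of all genes in that fit is not given here. Nolc1 (-0.51 ± 0.09), Polr1c (-0.48 ± 0.08), Rrp1b (-0.42 ± 0.09), Dkc1 (-0.36 ± 0.08) and Nip7 (-0.27 ± 0.06) stayed lower. Nhp2, Nop16, Rrp9 and Tsr1 were no longer called, and Noc2l, Noc3l, Ltv1, Nop56 and Rrp12 joined the genes that were higher.

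In AAD medium 13 members were lower and 3 higher in Atf4-/- than in WT cells (43.2% called, against 54.3% of all genes tested, 22.9% lower and 31.4% higher), and the median was -0.13, against 0.02. Lower genes outnumbered higher ones among the members while all genes leaned the other way. Tsr1, whose values are given above, differed by -0.67 ± 0.07 (limma adjusted p = 9.06e-07). Nolc1 read 10.32, 10.26 and 10.24 in WT and 9.77, 9.62 and 9.44 in Atf4-/- cells (-0.66 ± 0.10, limma adjusted p = 3.55e-05). Polr1c read 9.79, 9.80 and 9.81 in WT and 9.24, 9.14 and 9.18 in Atf4-/- cells (-0.61 ± 0.07, limma adjusted p = 1.65e-06). No array of one genotype overlapped those of the other in these genes.

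Gnl3 (-0.57 ± 0.08) and Rrp1b (-0.55 ± 0.10) followed. Nop58, the box C/D core protein, differed by -0.53 ± 0.11, and read 11.91, 12.00 and 12.09 in WT against 11.72, 11.42 and 11.26 in Atf4-/- cells. Ddx21, an RNA helicase that binds rRNA genes and snoRNAs, and Wdr43, a processome protein, each differed by -0.37. Dkc1, Nip7, Utp18, Nop14 and Ncl (nucleolin) lay between -0.36 and -0.14, the last with a limma adjusted p of 0.0499, and for Utp18 a second probe set gave 0.02. Without both arrays numbered 3, 11 members were lower and 4 higher, with Nop14 and Ncl no longer called.

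The genes higher in Atf4-/- cells in AAD medium were Mybbp1a, Noc2l and Rrp12. Mybbp1a read 11.45, 11.52 and 11.32 in WT and 11.73, 11.77 and 11.67 in Atf4-/- cells (0.29 ± 0.08, limma adjusted p = 0.00471). Noc2l read 8.51, 8.55 and 8.61 in WT and 8.91, 8.86 and 8.73 in Atf4-/- cells (0.28 ± 0.08, limma adjusted p = 0.00674). In both genes the Atf4-/- arrays were all above those of WT. Rrp12, an export factor of both subunits, overlapped between 7.95, 8.00 and 7.66 in WT and 8.16, 8.19 and 7.95 in Atf4-/- cells (0.23 ± 0.09, limma adjusted p = 0.048). In both media 6 genes were lower (Dkc1, Nip7, Nolc1, Polr1c, Rrp1b and Tsr1), which is 6 of 9 in normal and 6 of 13 in AAD medium, and Mybbp1a was higher in both. The media share no arrays here, but arrays of 1 genotype and number correlated across media (0.30 to 0.69), so these calls are not independent. The share of all genes lower in both media was not counted.

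Cebpg-/- cells had no member called lower than in WT in either medium by limma, and 0 in normal and 4 in AAD medium were lower at an unadjusted p under 0.05. In normal medium 4 were higher (10.8% called, against 23.3% of all genes tested, 12.3% higher and 11.1% lower), and the median was 0.09, against 0.04. Wdr12, a part of the PeBoW complex, read 9.15, 9.42 and 9.13 in WT and 9.52, 9.56 and 9.51 in Cebpg-/- cells (0.30 ± 0.09, limma adjusted p = 0.019). Polr1c read 10.13, 10.14 and 10.18 in Cebpg-/- cells, above all WT arrays (0.21 ± 0.07, limma adjusted p = 0.0355). Nob1, the nuclease that trims the small subunit's RNA at its end, read 9.08, 9.18 and 9.11 in WT and 9.27, 9.37 and 9.23 in Cebpg-/- cells (0.17 ± 0.06, limma adjusted p = 0.0389). The groups did not overlap in these 3 genes, and Npm1, the nucleolar chaperone nucleophosmin, was higher by 0.13 ± 0.04.

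These calls in normal medium were weak. None of the 4 was kept in all 6 fits leaving out 1 array, and the count was 0 without the WT arrays numbered 1 or 3 or the Cebpg-/- array numbered 2, 1 without the Cebpg-/- array numbered 1 and 2 without the one numbered 3. It was 1 after centring each array on its median. With the replicate block Npm1 had a limma adjusted p of 0.0515.

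In AAD medium 10 members were higher in Cebpg-/- than in WT cells (27.0% called, against 29.5% of all genes tested, 16.1% higher and 13.4% lower), and the median was 0.13, against 0.02. Large subunit factors (4 of 10) and snoRNP proteins (3 of 7) made up most of them. Nop16 was at 9.34, 9.39 and 9.09 in WT and 9.64, 9.68 and 9.56 in Cebpg-/- cells (0.35 ± 0.08, limma adjusted p = 0.00494). Dkc1 read 10.65, 10.68 and 10.44 in WT and 10.85, 10.94 and 10.95 in Cebpg-/- cells (0.32 ± 0.10, limma adjusted p = 0.0245). Wdr12 read 9.09, 9.06 and 8.89 in WT and 9.26, 9.21 and 9.40 in Cebpg-/- cells (0.28 ± 0.09, limma adjusted p = 0.0219). In all 3 genes the Cebpg-/- arrays lay above all WT arrays.

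The remaining genes higher in Cebpg-/- cells in AAD medium were Noc2l (0.28 ± 0.08), Mybbp1a (0.28 ± 0.08), Nhp2 (0.27 ± 0.09), Fbl (0.20 ± 0.06), Noc3l (0.17 ± 0.06), Nob1 (0.15 ± 0.06) and Npm1 (0.14 ± 0.04). Of the 10 genes higher in AAD medium 3 were among the 4 higher in normal medium (Nob1, Npm1 and Wdr12). The second probe sets of Noc2l (-0.07) and Wdr12 (-0.03) did not show the difference. Fbl lies 6.9 Mb from Cebpg on chromosome 7, so that sequence carried along with the targeted allele and the deletion itself cannot be told apart for it. The WT array numbered 3 bore on the count, which was 2 without it. It was 6 without any 1 of the Cebpg-/- arrays (5 higher and 1 lower without the one numbered 3), and the block left Noc3l with a limma adjusted p of 0.0552.

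**Figure D3:**
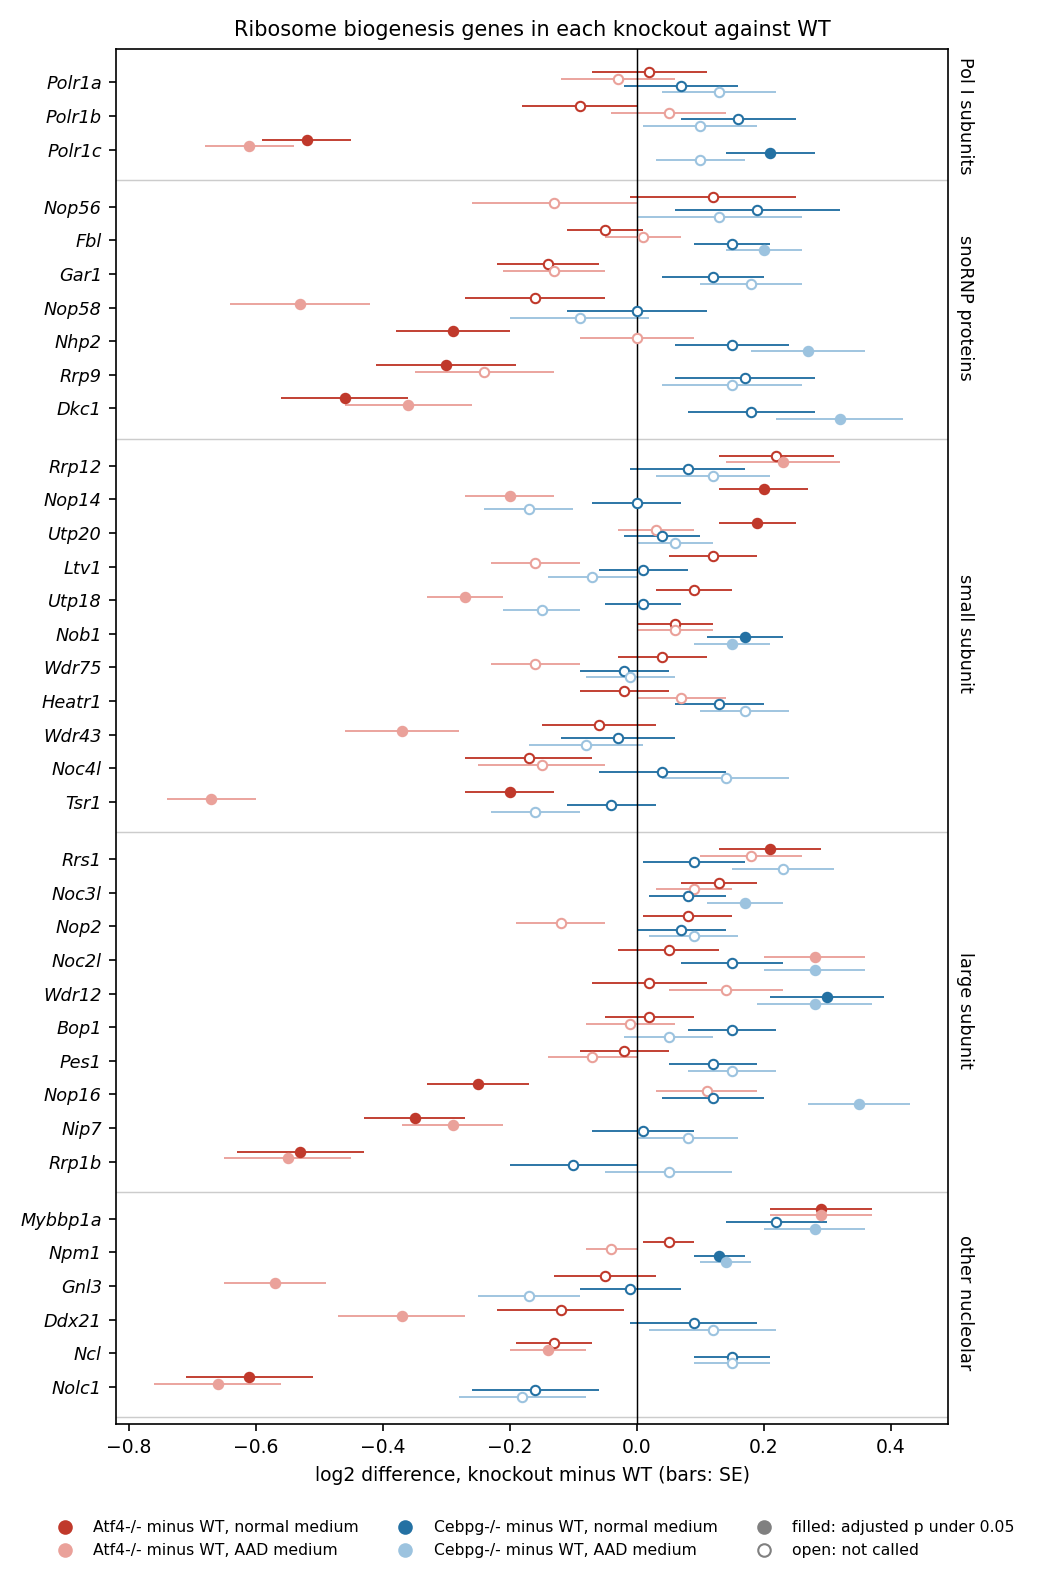
Log2 difference of each of the 37 genes between knockout and WT cells, in normal medium (dark) and AAD medium (light), grouped by role; bars are standard errors from limma (n = 3 arrays per group) and filled points have an adjusted p under 0.05. Atf4-/- points reach from -0.67 for Tsr1 to 0.29 for Mybbp1a, and Cebpg-/- points lie between -0.18 and 0.35, with no filled point below 0.

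Macrophage markers were higher in the knockouts than in WT: 6 of 10 in Atf4-/- and 9 of 10 in Cebpg-/- cells in normal medium and 9 and 10 of 10 in AAD medium, by the same test. Fibroblast markers were lower in part, 5 of 10 in Atf4-/- cells (with 2 higher) and 6 of 10 in Cebpg-/- cells in normal medium. In AAD medium 5 of 10 were lower in each, again with 2 higher in Atf4-/- cells. These marker differences accompany every comparison of a knockout with WT above, and their part in it was not tested. Under AAD medium the macrophage markers fell in 3 of 10 cases in WT, 2 in Atf4-/- and 5 in Cebpg-/- cells. The fibroblast markers rose in 3 of 10 cases in WT, 1 in Atf4-/- and 2 in Cebpg-/- cells. For the differences between responses 0 of the 10 macrophage and 0 of the 10 fibroblast markers were called by limma. The endothelial marker above the filter, Kdr, changed by 0.93 in WT and 0.69 in Cebpg-/- cells, both called, and by 0.27 in Atf4-/- cells, not called. Its response was called as lower in Atf4-/- than in WT cells (-0.66), and its level as higher in Atf4-/- (0.55) and Cebpg-/- cells (0.35) in normal medium. Of 6 epithelial and keratinocyte markers 1 was called in these comparisons, as lower in Atf4-/- than in WT cells in AAD medium. Their median response was 0.62 in Cebpg-/- cells, and their summed level spanned 8.26 to 10.02 in Cebpg-/- cells in AAD medium and reached at most 8.65 in any other group. Of 2 skeletal muscle markers 1 was lower in Cebpg-/- than in WT cells in both media (median over both markers -0.59). The part of these markers was not tested either.

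Of the 37 genes, 29 were called in at least 1 of the 9 comparisons without the replicate block. The other 8 were Polr1a, Gar1, Nop56, Heatr1, Noc4l, Wdr75, Bop1 and Pes1. Of these 8, 5 were called with the replicate block as falling under AAD medium, Heatr1 in WT, Noc4l in WT and Atf4-/-, Wdr75 and Nop56 in Atf4-/- and Bop1 in Cebpg-/- cells. For some of the 8 another probe set told a different story. There were 76 probe sets for the 37 genes, 72 of them tested, and 26 genes had more than 1. Polr1a's second probe set differed between Atf4-/- and WT cells in normal medium by -0.98 ± 0.19 (limma adjusted p = 0.000405, over 24662 probe sets), where the brightest gave 0.02. Pes1's second gave 1.00 ± 0.09 in the same comparison, where the brightest gave -0.02. In WT under AAD medium Bop1's second probe set changed by -0.93 ± 0.13, Heatr1's by -0.53 ± 0.13 and Wdr75's by -0.66 ± 0.15, all called. In no comparison was another probe set called in the direction opposite to a called brightest one. The files do not say which transcripts each probe set reads. Bop1 lies 3.8 Mb from Atf4 on chromosome 15.

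The wider pathway was read from 124 further genes on the array, of 130 named. Under AAD medium 16 rose and 31 fell in WT (37.9% called, against 28.2% of all genes), 0 rose and 15 fell in Atf4-/- (12.1%, against 4.7%), and 15 rose and 20 fell in Cebpg-/- cells (28.2%, against 21.9%). The medians were -0.07, -0.10 and -0.06. Myc, the transcription factor that drives ribosome biogenesis genes, read 9.36, 9.41 and 9.35 in WT in normal medium and 11.13, 11.13 and 11.20 in AAD medium, a rise of 1.78 ± 0.10 (limma adjusted p = 1.77e-09). It rose by 1.17 ± 0.10 in Cebpg-/- cells, and in Atf4-/- cells it read 9.55, 9.60 and 9.30 and then 9.51, 9.47 and 9.14 (-0.11 ± 0.10, limma adjusted p = 0.65). Its response thus differed from WT by -1.89 ± 0.14 in Atf4-/- cells (limma adjusted p = 3.65e-07), and by -0.61 ± 0.14 in Cebpg-/- cells (limma adjusted p = 0.0856, and 0.0122 with the replicate block). Taf1d, a part of the polymerase I initiation factor SL1, rose by 1.22 ± 0.07 in WT and 1.01 ± 0.07 in Cebpg-/- cells, but its second probe set fell in both, by 0.63 and 0.45 on the log2 scale.

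The deepest falls of the wider pathway were in Ppan, a large subunit factor, and Exosc4, a core subunit of the RNA exosome. Ppan read 9.37, 9.45 and 9.20 in WT in normal medium and 8.28, 8.22 and 7.99 in AAD medium (-1.17 ± 0.09, limma adjusted p = 6.68e-08). It fell in all 3 genotypes, by 0.65 in Atf4-/- and 1.01 in Cebpg-/- cells on the log2 scale. In normal medium Ppan was already lower in Atf4-/- than in WT cells (-0.46 ± 0.09, limma adjusted p = 0.000358). In AAD medium that difference was 0.07 ± 0.09, not called. Exosc4 changed by -0.79 ± 0.09 in WT and -0.57 ± 0.09 in Cebpg-/- cells. In Atf4-/- cells Surf6, a nucleolar factor of the large subunit, changed by -0.58 ± 0.06, though its second probe set gave 0.02. Surf6 also fell in WT (-0.65 ± 0.06) and Cebpg-/- cells (-0.28 ± 0.06), both called. The difference of its Atf4-/- response from WT was 0.07 ± 0.09, not called. Between responses of Atf4-/- and WT cells 14 of the 124 genes were lower and 3 higher (11.3% and 2.42%, against 7.04% and 5.73% of all genes), and Ppan (0.53 ± 0.12) and Exosc4 (0.45 ± 0.13) were among the latter. Between Cebpg-/- and WT responses limma called 0 without the replicate block, with 9 at an unadjusted p under 0.05. With the block, genes called included Myc, as given above, and Surf6 (0.38, limma adjusted p = 0.0311). Nufip1, described below, was also called then (-0.35, limma adjusted p = 0.041).

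The wider pathway was also compared between genotypes. In normal medium 46 of the 124 genes (37.1%) were higher and 20 (16.1%) lower in Atf4-/- than in WT cells (median 0.11), against 30.2% and 21.4% of all genes. In AAD medium 39 (31.5%) were higher and 28 (22.6%) lower (median 0.07), close to the 31.4% and 22.9% of all genes. In Cebpg-/- cells 30 (24.2%) were higher and 1 (0.806%) lower in normal medium (median 0.10), against 12.3% and 11.1% of all genes. In AAD medium 38 (30.6%) were higher and 5 (4.03%) lower (median 0.12), against 16.1% and 13.4%. Atf4-/- cells in normal medium were lower in Tcof1, the nucleolar protein treacle (-0.86 ± 0.10), and Exosc8, another exosome subunit (-0.64 ± 0.11, but 0.14 by its second probe set), and higher in the processome factors Ngdn (0.97 ± 0.06) and Rrp36 (0.81 ± 0.06). In AAD medium they were lower in Myc (-1.78 ± 0.10) and Tcof1 (-0.79 ± 0.10) and higher in Exosc4 (0.86 ± 0.09) and Znhit6, a box C/D snoRNP assembly factor (0.74 ± 0.07). Cebpg-/- cells were lower in Mdn1, a large ATPase of pre-60S particles (-0.24 ± 0.07), and higher in Znhit6 (0.50 ± 0.07) and Rrp36 (0.45 ± 0.06) in normal medium. In AAD medium they were lower in Myc (-0.50 ± 0.10) and Nufip1, a snoRNP assembly factor (-0.31 ± 0.07), and higher in Utp23 (0.69 ± 0.14), a processome factor, and Exosc4 (0.51 ± 0.09).

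**Figure D4:**
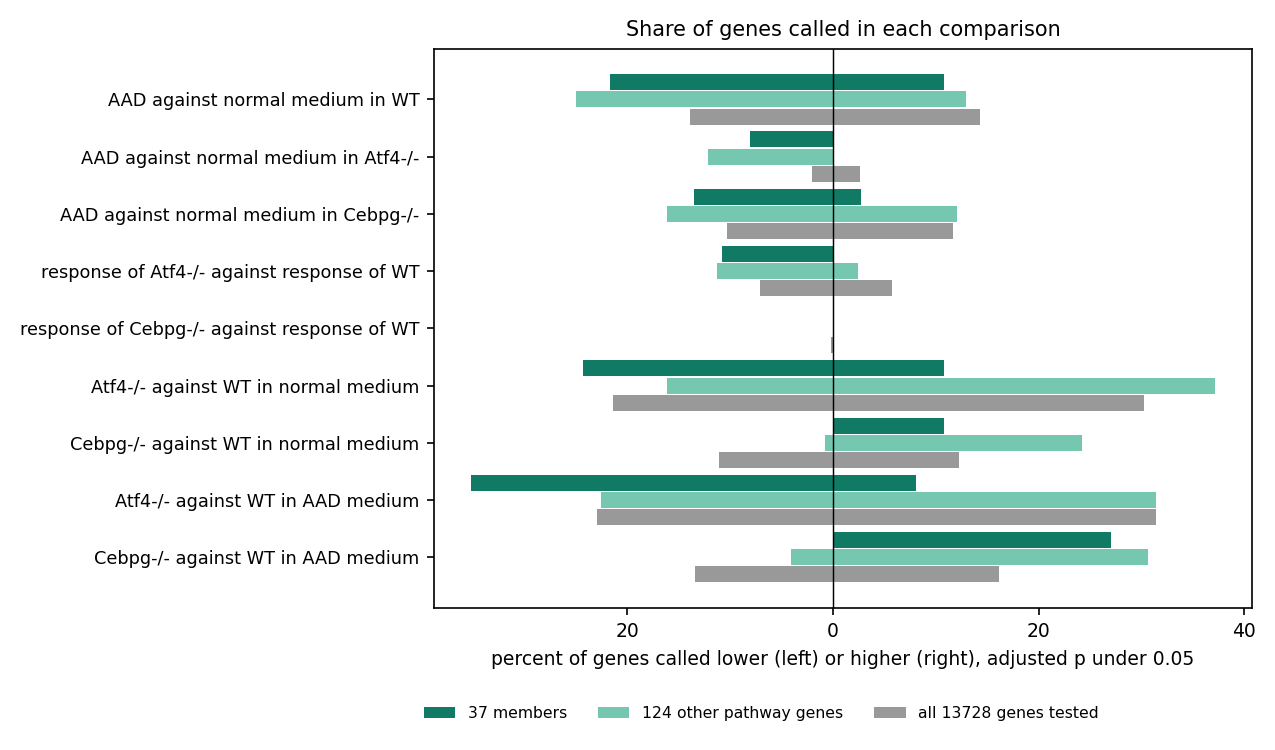
Percent of the 37 genes, the 124 other pathway genes and all 13728 genes tested that were called lower (bars to the left) or higher (bars to the right) in each of the 9 comparisons by limma at an adjusted p under 0.05. For Atf4-/- against WT in AAD medium 13 of 37 are lower and 3 higher, while 22.9% of all genes are lower and 31.4% higher; for Cebpg-/- against WT in the same medium 10 of 37 are higher and 0 lower.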

How the data were processed

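Total RNA (RNeasy) was hybridised to Affymetrix whole-genome mouse arrays. Deposited values, 1 per probe set, are on a log2 scale and were made with RMA per the submitters' processing notes, with no version given; RMA subtracts background, equalises the arrays' distributions and summarises probes, so a shift shared by most genes is removed. They were used without further normalization. Of 45101 probe sets, 34958 had 1 gene symbol, 932 had several and 9211 were not listed; the latter sets were left out. Symbols were matched by Entrez identifier (34754) to a GRCm38.p6 gene table. A gene was tested if at least 1 group mean reached the 40th percentile of the values (4.65).

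Fits on all 18 arrays used limma 3.58.1 (R 4.3.3), 6 group means, 12 residual degrees of freedom and 2-sided moderated tests, Benjamini-Hochberg adjusted over 13728 genes. The method was tested on simulated data. Residuals of arrays of 1 genotype and number correlated across media (0.30 to 0.69 in 9 of 9 pairs). Arrays were therefore paired by number in an alternative fit, the replicate block. The main fit ignores this pairing. The labels do not say whether a number stands for a culture, an isolate or a batch. The block is genotype with number, fixed for responses, and random elsewhere (correlation 0.40). The median residual SD was 0.11. Shares of all genes called are given for fits on all arrays at an adjusted p under 0.05. None is given for counts at an unadjusted p or with arrays left out.

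Per-array values are given for the 3 largest rises and falls among called members of each comparison (or the largest estimate if none was called). Other pathway genes were named for the 2 largest rises and falls among called ones, and Myc in any case. Of these, array values are printed for Myc and Ppan only, and the others are given as differences. Nop58, Kdr and second probe sets were singled out after their values were seen. The members and lists were chosen with earlier results of these data known. Alternatives were median-centred arrays, no filter, the mean over probe sets, own groups alone, the block and leaving out each array; the second probe set and leaving out both Atf4-/- arrays numbered 3 were chosen after seeing the data.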

Additional observations from a re-analysis of the deposited data

Results flagged for a closer look

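The response to AAD medium differed between Atf4-/- and WT cells, by the interaction test in limma, in 4 of the 37 genes. It also differed in 17 of the 124 genes of the wider pathway, of which those named in this report follow. Gnl3 differed by -0.52, Tsr1 by -0.47, Nop14 by -0.40 and Utp18 by -0.37. Of the wider pathway, Myc differed by -1.89, Taf1d by -1.30, Nufip1 by -0.61 and Ngdn by -0.47. Exosc4 and Ppan fell less than in WT, by 0.45 and 0.53, though Ppan was already lower than in WT in normal medium (-0.46). For Taf1d a second probe set gave 0.07 and for Utp18 0.14, and neither was called. Between Cebpg-/- and WT responses limma called none of these genes without the replicate block. With the block it called Myc (limma adjusted p = 0.0122) and Nufip1 (limma adjusted p = 0.041). Groups of 3 arrays were too small for a search for single outlying arrays.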

How the results depend on the processing

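With the replicate block the count of members called went from 12 to 19 in WT, from 3 to 11 in Atf4-/-, from 6 to 15 in Cebpg-/- cells and from 4 to 10 for the difference of the Atf4-/- response; it removed 2 calls (Npm1 in normal and Noc3l in AAD medium, Cebpg-/- against WT) and no other call of a named gene. Fits on the groups of a comparison alone gave 1 member in Atf4-/- cells, and 2 (normal medium) and 4 (AAD medium) for Cebpg-/- against WT. Means over probe sets gave 11 in Cebpg-/- cells and 6 for Cebpg-/- against WT in AAD medium. For Cebpg-/- against WT in normal medium, median centring left 1 and no filter 2. The causes were not tested.

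Leaving out 1 array gave 7 to 11 members in WT, 1 to 8 in Atf4-/-, 4 to 6 in Cebpg-/-, 4 to 7 and 0 for the Atf4-/- and Cebpg-/- differences of response, 9 to 13 and 13 to 17 for Atf4-/- against WT in normal and AAD medium, and 0 to 4 and 2 to 8 for Cebpg-/-.

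Second probe sets turned the sign for Nip7 (WT response, 0.00), Utp18 (difference of response 0.14, Atf4-/- against WT in AAD medium 0.02), Nop16 (Atf4-/- against WT in normal medium, 0.12), Noc2l and Wdr12 (Cebpg-/- against WT in AAD medium, -0.07 and -0.03), Exosc8 (Atf4-/- against WT in normal medium, 0.14), Surf6 (Atf4-/- response, 0.02) and Taf1d (WT response -0.63, Cebpg-/- response -0.45, difference of response 0.07). Means over probe sets turned Taf1d too, to -0.13 in WT and -0.17 in Cebpg-/- cells. With 3 arrays a group, the smallest differences called among the members were 0.13 (Npm1) and -0.14 (Ncl).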
